A study of Danio rerio with 18 samples.

Results

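The genes described here are ret, gfra1a, fgfr1a, etv4, etv5a, etv5b, spry1, spry2, spry4 and dusp6: receptors for GDNF and FGF ligands, transcription factors induced through the kinase ERK, and feedback inhibitors of the same cascade. They were chosen by symbol, with earlier results of these data known. The rows of the count tables whose RefSeq accession maps to one of these symbols were taken. Of the 10 genes, 8 had at least 1 accession, with 10 accessions in all among 32820 accessions in the tables. No accession mapped to fgfr1a or etv5b, and these 2 genes are not analysed here.

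Counts came from RNA sequencing of fragments of the pronephric duct, the tube that carries the filtrate of the embryonic kidney, taken from zebrafish 30 hours after fertilisation (30 hpf). All embryos, in both groups, were of the transgenic Na, K-ATPase alpha1A4:GFP line, which fluoresces in the pronephros, and fragments were picked by eye for GFP once 15 embryos had been broken up with collagenase. The control group (10 libraries, genotype WT) received a standard control morpholino at the 1-cell stage. The actl6a group (8 libraries, genotype actl6a knockdown) received, at the same stage, a morpholino that blocks translation of actl6a, a subunit gene of SWI/SNF chromatin remodelling complexes. The labels give about 10 fragments per collection and do not say whether libraries share an injection, so p-values measure the spread between these libraries.

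Ret is a receptor tyrosine kinase that binds GDNF family ligands together with a coreceptor of the GFRA family, and FGF receptors are receptor tyrosine kinases as well. Both signal through RAS, RAF and MEK to ERK. ERK activity raises the transcription of the ETS factors Etv4 and Etv5 and of inhibitors of the same route, the Sprouty proteins and the ERK phosphatase Dusp6, so the levels of these transcripts are often read as a record of recent signalling. In zebrafish embryos etv4, spry4 and dusp6 are known targets of FGF. In the mouse, Ret in the nephric duct drives outgrowth of the ureteric bud, Etv4 and Etv5 act downstream of it, and Spry1 restrains it.

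Library totals ran from 1564673 to 3393310 counts. The duct gene cdh17, a cadherin gene of the pronephric epithelium, was chosen after its values had been seen. It lay between 997.1 and 1323 CPM (a gene's counts scaled to library size, with TMM factors) in controls. In actl6a libraries cdh17 lay between 991.2 and 1262 CPM. Chosen in this way, it cannot check that the groups held equal amounts of duct. The transcript of actl6a (NM_173240.1) ran from 83.8 to 131 CPM in controls and from 122 to 154 CPM in actl6a libraries. Its fitted log2 fold change was 0.34 ± 0.0887 (SE; edgeR adjusted p = 0.0137). Here and below the adjusted p is that of the quasi-likelihood F test of edgeR, adjusted by Benjamini-Hochberg over all accessions tested. A morpholino against translation leaves the transcript in place, so this level does not measure the knockdown. The pronephros list (14 of 18 genes, without pax2a, pax8, clcnk and mecom) summed to 3818 to 6048 CPM in controls (median 4222). In actl6a libraries it was 3366 to 4832 CPM (median 4181). Of its 13 accessions tested 0 passed an adjusted p of 0.05 in edgeR, with 6 fitted values above 0 and 7 below. The 2 with an unadjusted p under 0.05 were slc12a1 (log2 fold change −0.50, edgeR adjusted p = 0.0809) and evx1 (1.61, edgeR adjusted p = 0.150). Each group has its own count table and its own range of barcodes, and a batch cannot be told apart from the group. In bulk fragments, fewer cells of a type and less RNA per cell cannot be told apart either.

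The coreceptor gene gfra1a was the 1 member that differed between the groups, at 2.33 times the control level in actl6a libraries, and its call was lost in 13 of 18 fits without 1 library. The receptor gene ret and the phosphatase gene dusp6, the members with the most counts, were at 0.861 and 0.878 times the control level, with intervals that included 1. The ETS gene etv4 ranged over more than 10 times its lowest level within each group, in the actl6a group through replicate 4 alone. The Sprouty genes were at low levels in both groups, and etv5a was at or near 0. Of 14462 accessions tested, 16.4% were called at an adjusted p of 0.05, 7.9% higher and 8.52% lower. Of the 5 members tested, 1 was called (20%), a share that 1 gene sets; 1 was higher and 0 were lower.

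**Figure D1:**
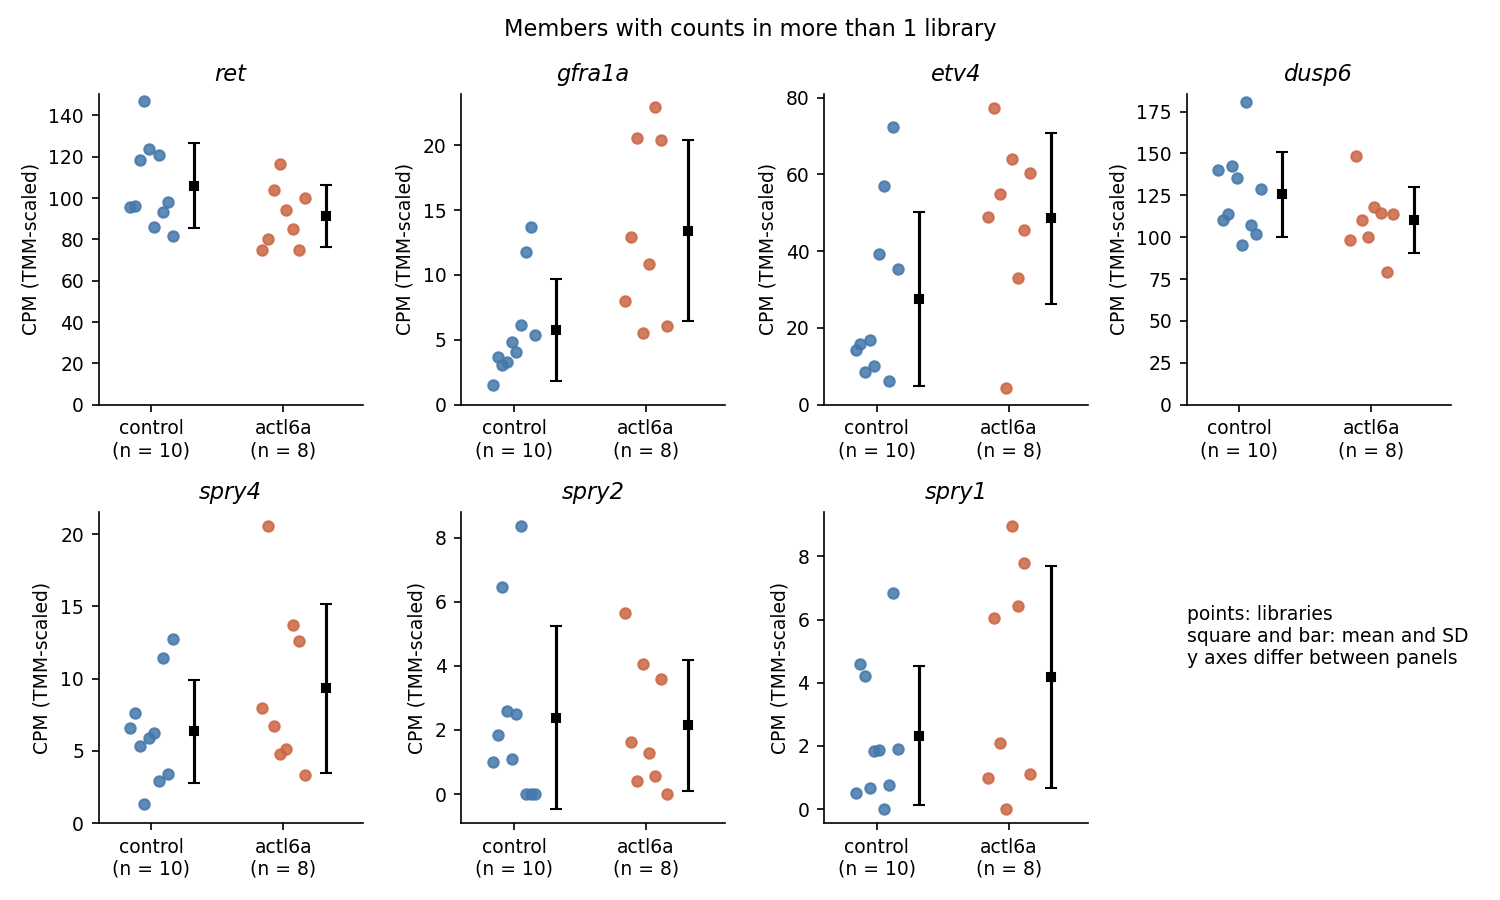
Level of the 7 members with counts in more than 1 library, as CPM scaled by TMM factors (y axes differ), for 10 control and 8 actl6a libraries. Points are libraries, squares and bars are mean and SD; gfra1a ran from 1.52 to 13.7 CPM in controls and from 5.53 to 22.9 CPM in actl6a libraries, and etv4 spread widely in both groups.

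The receptor gene ret (NM_181662.2) had 147 to 420 counts in each library. In controls its level was 81.7 CPM at the lowest, 97.1 at the median and 147 at the highest, with a mean of 106 ± 20.5 CPM (SD, n = 10). In actl6a libraries it was 74.9 CPM at the lowest, 89.5 at the median and 117 at the highest, with a mean of 91.2 ± 15.02 CPM (SD, n = 8). The groups overlapped, with 3 actl6a libraries below every control and 3 above the control median. The fitted log2 fold change was −0.22 ± 0.119 (SE; 95% interval −0.47 to 0.03; edgeR adjusted p = 0.227). With scores of muscle, blood, epidermis and neural markers as covariates it was 0.12, the opposite direction (edgeR adjusted p = 0.805). Its spread was narrow, since the coefficient of variation was 19.3% in controls and 16.5% in actl6a libraries.

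The duct gene atp1a1a.4 had a similar value, with a fitted log2 fold change of −0.21 ± 0.112 (SE; edgeR adjusted p = 0.220), which was −0.11 without control replicate 4 and 0.16 with the same covariates. Other duct genes did not all share this direction. Of 13 pronephros accessions tested 6 had a fitted value above 0 and 7 below, and that of cdh17 was −0.009 (edgeR adjusted p = 0.949). The part of the amount of duct in the value of ret was not tested. As a percentage of the CPM of atp1a1a.4, ret was 5.50 at the lowest, 6.31 at the median and 8.44 at the highest in controls. In actl6a libraries the same percentage was 5.55 at the lowest, 6.37 at the median and 8.004 at the highest, and the groups overlapped almost fully. Control replicate 4, the library with the most ret (147 CPM), was also the one with the most atp1a1a.4 (2511 CPM). It had the smallest total of all libraries, at 1564673 counts.

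**Figure D2:**
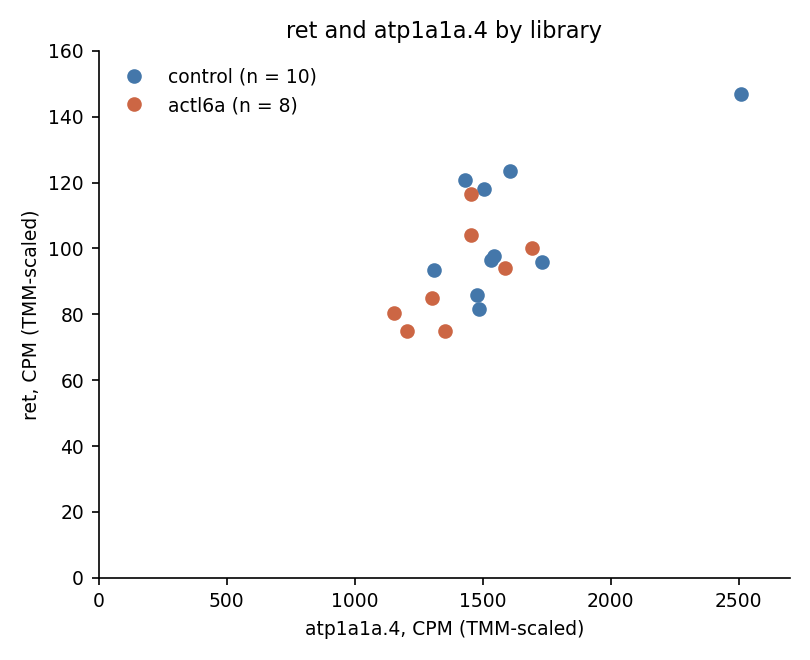
Level of ret against that of atp1a1a.4, both as CPM scaled by TMM factors, with 1 point for each of 10 control and 8 actl6a libraries. The groups overlap on both axes, and control replicate 4 stands at the upper right with 2511 CPM of atp1a1a.4 and 147 CPM of ret.

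The coreceptor gene gfra1a (NM_131730.1), which binds GDNF and presents it to Ret, was counted at low levels, with 3 to 82 counts per library. Controls had 1.52 CPM at the lowest, 4.42 at the median and 13.7 at the highest, with a mean of 5.74 ± 3.93 CPM (SD, n = 10). The actl6a libraries had 5.53 CPM at the lowest, 11.9 at the median and 22.9 at the highest, with a mean of 13.4 ± 6.99 CPM (SD, n = 8). The control median was exceeded in 8 of 8 actl6a libraries, and replicates 3, 6 and 7 of these exceeded every control, while control replicates 8 (11.8 CPM) and 9 (13.7 CPM) stood above the rest of their group. The fitted log2 fold change was 1.22 ± 0.407 (SE; 95% interval 0.37 to 2.07; edgeR adjusted p = 0.0461).

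The call of gfra1a was lost in 13 of 18 fits that each left out 1 library, where the log2 fold change ran from 1.06 to 1.46 and the largest adjusted p was 0.0915 in edgeR's test. The libraries whose omission left the call standing were controls 8 and 9 and actl6a replicates 1, 4 and 8. With the scores of muscle, blood, epidermis and neural markers as covariates, its log2 fold change was 0.25 with an adjusted p of 0.901. In that edgeR fit 0 members had an unadjusted p under 0.05, 105 of 14462 accessions were called, and the 4 scores accounted for 74.4% of the variance of the group label.

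Marker lists of other tissues are given by the accessions called and by the range of their summed level. Of the accessions tested, edgeR called 2 of 5 neural, 2 of 10 epidermis and 1 of 1 endothelium higher, against 7.9% of all accessions. At an unadjusted p under 0.05 were 5, 7 and 1 of these, against 4507 of all 14462. In the same lists DESeq2 called 4, 5 and 1, and limma-voom 2, 0 and 1. Of 9 blood, 8 muscle, 5 neural crest and enteric neuron and 3 notochord accessions edgeR called 0, with 0, 0, 1 and 1 at an unadjusted p under 0.05. Among these 4 lists DESeq2 called 0, and limma-voom called 3 blood and 1 notochord accessions. The summed level of the neural list (10 of 13 genes with an accession) was 57.9 to 151 CPM in controls and 132 to 697 CPM in actl6a libraries, with no accession for elavl3, tubb5 or gfap. That of the neural crest and enteric neuron list (7 of 8 genes) was 22.8 to 221 CPM in controls and 49.1 to 383 CPM in actl6a libraries; phox2bb, a gene of enteric and hindbrain neurons, had counts in 4 of 10 controls and 5 of 8 actl6a libraries. The blood list (10 of 12 genes) had 37.3 to 1499 CPM in controls and 172 to 3883 CPM in actl6a libraries, and the epidermis list (11 of 12 genes) 558 to 1633 CPM and 643 to 4405 CPM. The muscle list (9 of 14 genes) had 70.9 to 7505 CPM in controls and 327 to 9234 CPM in actl6a libraries. Its median was lower in actl6a libraries (906 CPM) than in controls (2579 CPM). Yet 7 of its 8 accessions tested had a fitted log2 fold change above 0, with a median of 0.45, so the direction depends on the measure. The medians of the neural, neural crest, blood and epidermis sums were higher in actl6a libraries. The defining neuronal gene elavl4 had 0 counts in controls and 6 in actl6a libraries, near the floor in both groups. The 3 actl6a libraries with the most gfra1a (replicates 3, 6 and 7) had neural sums of 168 to 250 CPM, and the 2 with the highest neural sums (530 and 697 CPM in replicates 1 and 2) had 7.96 and 12.9 CPM of gfra1a.

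The endothelium list (5 of 8 genes with an accession) summed to 0 to 15.6 CPM in controls and 9.96 to 36.8 CPM in actl6a libraries. Its 1 accession tested, of the VEGF receptor gene flt1 (NM_001257153.1), was higher in 8 of 8 actl6a libraries than in every control, with a value of 2.89 ± 0.556 on the log2 scale (SE; edgeR adjusted p = 0.00202). Of its defining genes kdrl had 5 counts in controls and 8 in actl6a libraries, and cdh5 had 18 and 35. The endothelium sum was 36.1, 34.1 and 34.5 CPM in actl6a replicates 3, 6 and 7, the libraries with the most gfra1a. It was 15.1, 16.6 and 9.96 CPM in actl6a replicates 4, 5 and 8, where gfra1a was at 5.53, 10.9 and 6.09 CPM. The highest sum, 36.8 CPM, was that of actl6a replicate 1, with 7.96 CPM of gfra1a. In actl6a replicate 2 the sum was 19.8 CPM, with 12.9 CPM of gfra1a. Among controls, replicates 8 and 9, with the most gfra1a (11.8 and 13.7 CPM), had endothelium sums of 3.42 and 8.76 CPM. The highest control sums, 13.8 and 15.6 CPM, were those of replicates 7 and 10, which had less gfra1a than replicates 8 and 9. Control replicates 3 and 4, with the lowest sums (1.13 and 0 CPM), were below the control median of gfra1a. The fit with covariates held scores of muscle, blood, epidermis and neural markers alone. Endothelium, neural crest and notochord lists entered no fit. Beyond this, the part of these tissues in the level of gfra1a was not tested.

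The ETS factor gene etv4 (NM_131425.2), also known as pea3, is a transcriptional target and effector of FGF and RET signalling. Its level in controls was 6.08 CPM at the lowest, 16.4 at the median and 72.3 at the highest, with a mean of 27.5 ± 22.7 CPM (SD, n = 10). In actl6a libraries it was 4.42 CPM at the lowest, 51.9 at the median and 77.4 at the highest, with a mean of 48.6 ± 22.2 CPM (SD, n = 8). Control replicates 6 (39.3 CPM), 7 (56.9 CPM), 9 (72.3 CPM) and 10 (35.3 CPM) lay well above the other controls, the highest of which was replicate 4 with 16.9 CPM. In the actl6a group replicate 4, with 4.42 CPM, was below every control, and the other libraries lay between 33.0 and 77.4 CPM.

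The groups overlapped over nearly their whole range, at the low end through actl6a replicate 4 alone, although 7 of 8 actl6a libraries exceeded the control median. The fitted log2 fold change was 0.81 ± 0.478 (SE; 95% interval −0.19 to 1.81; edgeR adjusted p = 0.259). With the 4 tissue scores as covariates it was −0.76, the opposite direction (edgeR adjusted p = 0.726). The biological coefficient of variation that edgeR fitted was 69.2% for etv4, against 18.7% for ret and 19.8% for dusp6. The libraries held 12 to 192 counts of etv4. A second accession of etv4 (XM_009306586.3) had 5 counts in controls and 2 in actl6a libraries and did not pass the filter on low counts.

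Some genes of the caudal end of the embryo were high in the same libraries as etv4. The list of cloaca and tailbud genes, all 13 with an accession, summed to 42.0 to 227 CPM in controls and 74.1 to 432 CPM in actl6a libraries. The 2 controls with the most etv4, replicates 9 and 7, had the highest sums of their group (210 and 227 CPM), and actl6a replicate 4, with the least etv4, had the lowest of its group. Of this list hoxa13b, hoxd13a and cdx4, and the duct gene evx1, were singled out after their values had been seen. The posterior Hox gene hoxd13a was at 0 in control replicates 1 to 4, at 35.4 and 99.4 CPM in control replicates 7 and 9, and at 4.31 to 180 CPM in actl6a libraries.

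The match was incomplete in both groups. Control replicate 6 had 39.3 CPM of etv4 with a sum of 84.2 CPM for the cloaca and tailbud list. Control replicate 3 had a higher sum (103 CPM) with 8.44 CPM of etv4. In actl6a replicates 1 and 6, hoxd13a was at 4.31 and 5.59 CPM and evx1 at 11.3 and 10.3 CPM, while etv4 was at 48.8 and 33.0 CPM. Of the 6 accessions of the list that were tested edgeR called 0, with 2 at an unadjusted p under 0.05, DESeq2 called 1 and limma-voom 0, and the fitted values of 4 were above 0. For cdx4 the medians were 31.0 CPM in controls and 49.1 CPM in actl6a libraries (edgeR adjusted p = 0.0924), while the tailbud mesoderm gene msgn1 had medians of 17.0 and 15.9 CPM (edgeR adjusted p = 0.651). How much of the level of etv4 comes with the caudal part of the duct or with tailbud cells in a fragment was not tested.

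**Figure D3:**
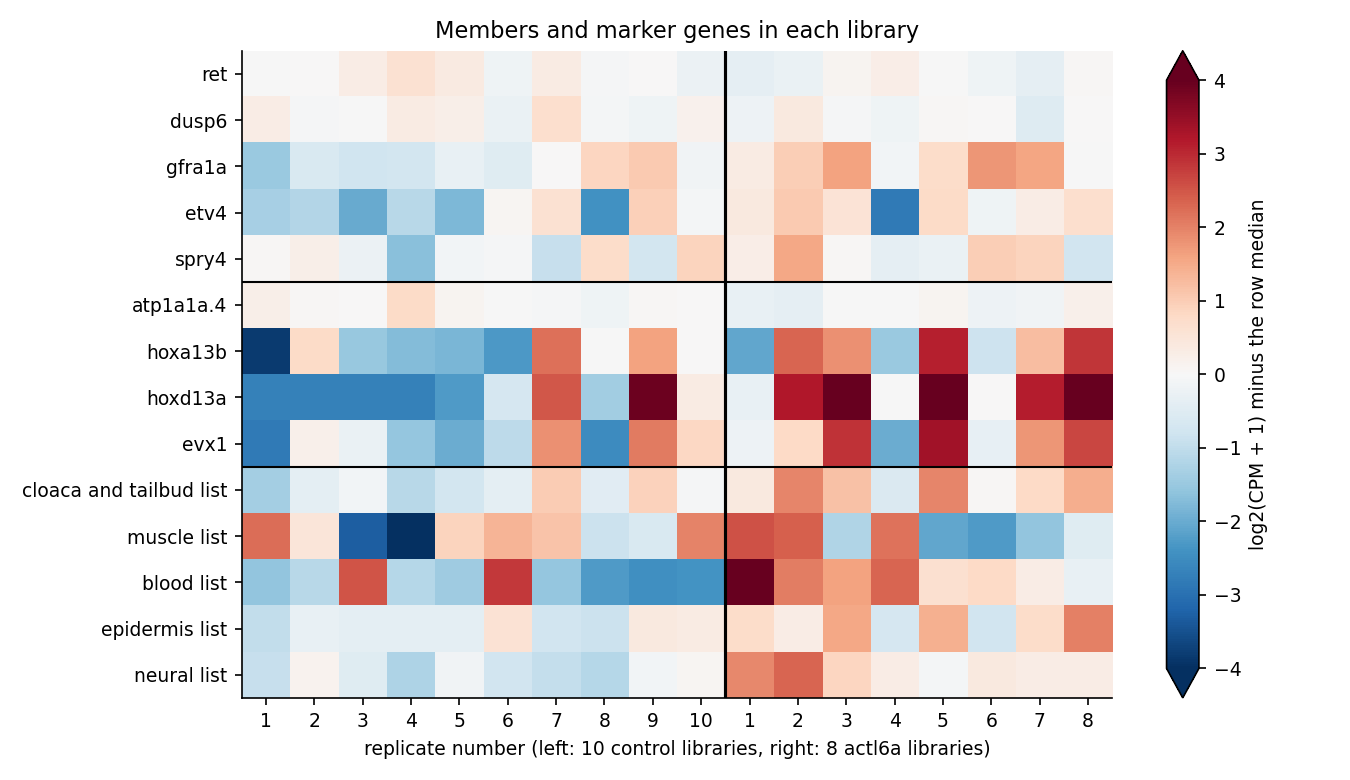
Level of 5 members, of atp1a1a.4 and 3 caudal genes, and summed level of 5 marker lists in each library, as log2(CPM + 1) minus the median of the row (red is higher, blue is lower). Columns are the 10 control libraries on the left and the 8 actl6a libraries on the right; ret, dusp6 and atp1a1a.4 vary little, etv4, hoxa13b, hoxd13a and evx1 are high in control replicates 7 and 9, and etv4, hoxa13b and evx1 are low in actl6a replicate 4.

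The other ETS gene with an accession, etv5a, had 1 count in all, in actl6a replicate 4. A library with no count could still hold 3, by counting error alone, which is 0.884 to 1.92 CPM of the library totals. At this depth, on its accession XM_021478612.1, etv5a was not detectable above that limit in any library.

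The feedback phosphatase gene dusp6 (NM_194380.1), whose protein removes the activating phosphates of ERK in the cytoplasm, had 184 to 562 counts in each library. Its level was 95.4 CPM at the lowest, 121 at the median and 181 at the highest in controls, with a mean of 126 ± 25.4 CPM (SD, n = 10). In actl6a libraries it was 79.1 CPM at the lowest, 112 at the median and 148 at the highest, with a mean of 110 ± 19.8 CPM (SD, n = 8). Of the actl6a libraries 7 were below the control median and 1, replicate 7, was below every control. The fitted log2 fold change was −0.19 ± 0.125 (SE; 95% interval −0.45 to 0.07; edgeR adjusted p = 0.325). It was −0.12 without control replicate 7, the library with the most dusp6, and −0.09 with the 4 tissue scores as covariates.

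The Sprouty genes encode inhibitors that ERK signalling induces and that hold back signalling from receptor tyrosine kinases. Of these spry4 (XM_021468746.1) was the only one to pass the filter, with 2 to 51 counts per library. Controls had 1.30 CPM at the lowest, 6.07 at the median and 12.7 at the highest, and actl6a libraries had 3.32, 7.34 and 20.6 CPM. The groups overlapped, with 5 of 8 actl6a libraries higher than the control median and 2 higher than every control. The fitted log2 fold change was 0.56 ± 0.412 (SE; 95% interval −0.30 to 1.41; edgeR adjusted p = 0.381). Without actl6a replicate 2, the library with the most spry4, it was 0.29, and with the 4 tissue scores as covariates it was −0.58.

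Counts of spry2 (XM_005160285.4) ran from 0 to 26 in controls and from 0 to 17 in actl6a libraries, with means of 2.39 ± 2.85 CPM (SD, n = 10) and 2.15 ± 2.04 CPM (SD, n = 8). It was listed with no count in control replicates 8, 9 and 10 and in actl6a replicate 8. For spry1 (XM_005173056.4) the mean was 2.32 ± 2.21 CPM in controls (SD, n = 10), against 4.18 ± 3.50 CPM in actl6a libraries (SD, n = 8). The 2 highest spry1 values were those of actl6a replicates 5 (8.96 CPM) and 7 (7.79 CPM), followed by control replicate 9 (6.85 CPM), and both groups held a library at 0. A second accession of spry1 (NM_001122600.1) had 6 counts, all in control replicate 10. None of these accessions passed the filter, so no test is given for spry1 or spry2.

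**Figure D4:**
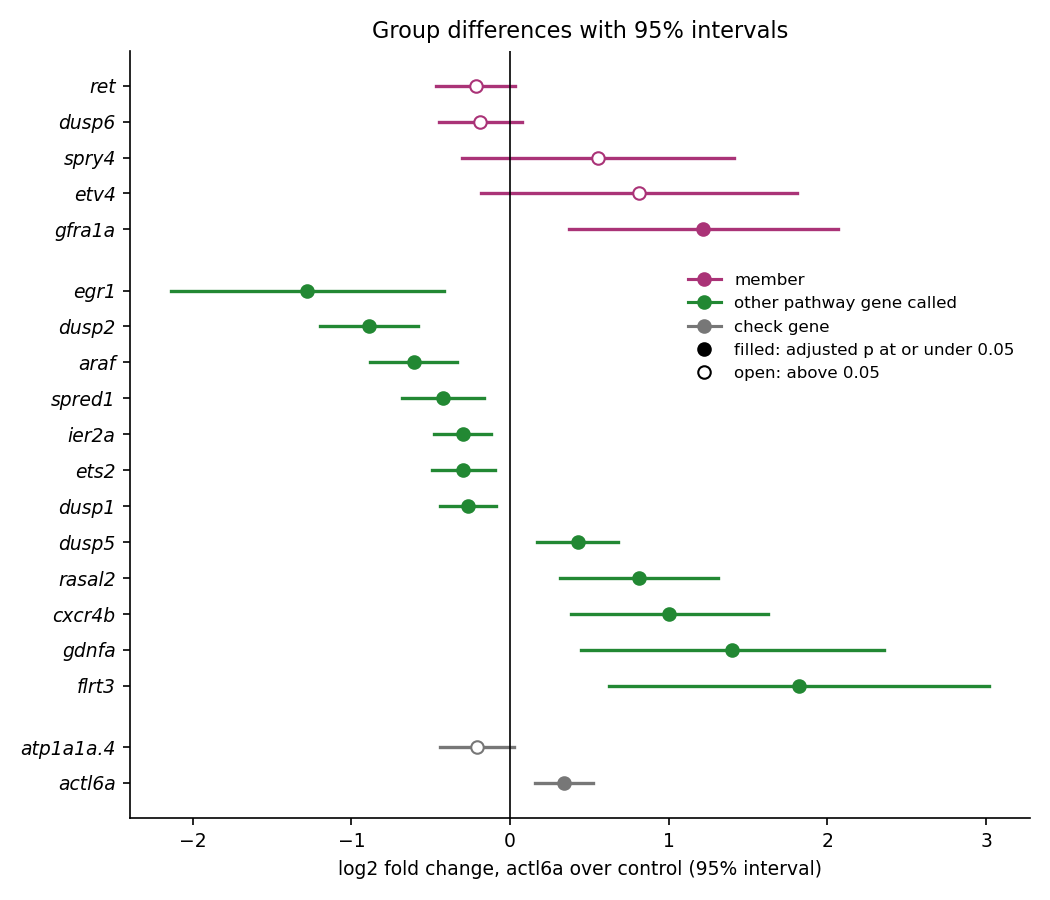
Log2 fold change of actl6a over control, with 95% intervals from edgeR's fit, for the 5 members tested, the 12 other pathway genes that were called, and the check genes atp1a1a.4 and actl6a. Filled points have an adjusted p at or under 0.05; among the members only gfra1a is filled, and the intervals of ret and dusp6 are narrow and reach 0.03 and 0.07 at their upper ends.

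Variation between libraries was compared after the group means were taken out. Of 10 pairs of members the largest Pearson r in size was that of ret and spry4, −0.756 over 18 libraries, with a Spearman rho of −0.738. It was −0.793 within the controls, −0.704 within the actl6a libraries and −0.709 without the 2 libraries farthest from the median of ret. The values of r for the other pairs ran from −0.358 (etv4 and ret) to 0.388 (dusp6 and ret), and that of the feedback genes dusp6 and spry4 was −0.145. All pairs share the same libraries, TMM factors and tissue makeup, and r is given as a description.

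Among 8899 accessions with a symbol and a mean of at least 10 CPM, the patterns most like those of the members were found by the same measure. For ret they were bin3 (r = 0.888, rho = 0.814), the alpha-catenin gene ctnna1 (r = 0.880, rho = 0.837) and purba (r = 0.872, rho = 0.837). For etv4 they were the homeobox gene dlx2b (r = 0.826, rho = 0.676), the claudin gene cldna (r = 0.811, rho = 0.709) and tmeff1b (r = 0.803, rho = 0.754). These 3 fell to between 0.615 and 0.646 without the 2 libraries farthest from the median of etv4, control replicate 8 and actl6a replicate 4. For gfra1a they were mideasa (r = 0.862), LOC101884896 (0.855) and si:ch73-266f23.4 (0.825). For spry4 they were ptpn9a (r = 0.858), trim107 (0.856) and ppdpfb (0.854), and for dusp6 tnpo2b (r = 0.800), knop1 (0.770) and hnrnpa1b (0.759). These are the highest of 8899 values of r for each member over 18 libraries and are high by selection.

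Other genes of the route from ligand to ERK target were taken from lists of 5 roles, with 116 genes, 98 of them with an accession and 69 accessions tested. Of these 5 were higher and 7 lower, a share of 17.4% against 16.4% of all accessions, with a median log2 fold change of −0.06 against 0.01 over all accessions. Without actl6a replicate 3 there were 6 called of 72. With the replicate number as a block, in a fit without control replicates 9 and 10, there were 4 of 68. Without a filter on low counts there were 7 of 118. Over all accessions the same fits called 1896 of 14772, 1058 of 13943 and 1966 of 32820. With the 4 tissue scores as covariates edgeR called 0, against 105 of all 14462 accessions, with 9 at an unadjusted p under 0.05. The calls of dusp2, araf and spred1 were lost in that fit and in no other alternative. There dusp2 had −0.92 (edgeR adjusted p = 0.0728), against −0.89 without the covariates. For araf the values were −0.43 (edgeR adjusted p = 0.395) and −0.61, and for spred1 −0.23 (edgeR adjusted p = 0.640) and −0.42. The marker sums given for gfra1a had higher medians in actl6a libraries, except that of muscle, which was lower although 7 of 8 muscle accessions had fitted values above 0. Their part in these calls was not tested beyond that fit, which held 4 of the lists.

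Of 25 ligand genes 9 were tested, with 1 higher and 0 lower, a share of 11.1% against 16.4% of all accessions. The one called was gdnfa, which encodes a GDNF ligand of Ret and Gfra1. In controls it was at 0.650 CPM at the lowest, 6.71 at the median and 10.9 at the highest, and in actl6a libraries at 3.63, 15.2 and 28.8 CPM. Of the actl6a libraries 6 were above every control, while the other 2 lay below the control median. The fitted log2 fold change was 1.40 ± 0.458 (SE; edgeR adjusted p = 0.0419). Leaving out control 1, 2, 3 or 6, or actl6a replicate 1, 3, 4, 5 or 8, lost the call (edgeR adjusted p up to 0.0873). It was also lost in 6 of 9 processing alternatives (library totals, no filter, a mean of at least 1 CPM, limma-voom with sample weights, the replicate block and the tissue scores as covariates), with values of 1.05 to 2.27 and adjusted p of 0.054 to 0.182.

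Of 18 receptor genes 10 were tested and 0 were called by edgeR, against 16.4% of all accessions, with 3 at an unadjusted p under 0.05. DESeq2 and limma-voom also called 0. Beside the missing fgfr1a, its paralogue fgfr1b had medians of 12.3 CPM in controls and 20.1 CPM in actl6a libraries, a fitted log2 difference of 0.73 (edgeR adjusted p = 0.138). The FGF receptor gene fgfr4 had medians of 110.4 and 83.9 CPM and a fitted log2 difference of −0.36 (edgeR adjusted p = 0.0701). The last of the 3, the VEGF receptor gene kdr, had means of 4.06 and 13.5 CPM. Its fitted log2 difference was 1.69 (edgeR adjusted p = 0.126). None of these 3 passed the threshold. The second GDNF coreceptor gene, gfra1b, had means of 9.11 and 9.15 CPM and a fitted log2 fold change of −7.01e-04 ± 0.467 (SE; edgeR adjusted p = 0.999).

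The cascade list, from adaptors through RAS, RAF and MEK to ERK, had 18 of its accessions tested, with 0 higher and 1 lower. That was a share of 5.56%, against 16.4% of all accessions. The gene that fell was araf (XM_005171817.4), which encodes a RAF kinase. Its medians were 70.2 CPM in controls and 42.7 CPM in actl6a libraries, a fitted log2 fold change of −0.61 ± 0.131 (SE; edgeR adjusted p = 0.00428). Of the actl6a libraries 7 were below the control median, and replicate 4 was above it at 73.7 CPM; the call held in each of 18 fits without 1 library. The kinase gene mapk3 had a fitted log2 difference of −0.41 (edgeR adjusted p = 0.0864), which did not pass the threshold. The cascade gene ptpn11b did not pass the filter on low counts, and no test is given for it. It had 1088 counts in controls and 56 in actl6a libraries. Its level spread from 0.281 to 93.4 CPM in controls and from 0.369 to 6.98 CPM in actl6a libraries.

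Of 14 inhibitor accessions tested, 3 were higher and 3 lower, a share of 42.9% against 16.4% of all accessions. The list was written with earlier results of these data known, and a few genes set this share. The lowest p was that of dusp2, an inducible nuclear phosphatase gene, which fell. It had 130 CPM at the lowest, 218 at the median and 323 at the highest in controls, and 91.5, 107 and 166 CPM in actl6a libraries. All 8 actl6a libraries were below the control median, with a fitted log2 fold change of −0.89 ± 0.148 (SE; edgeR adjusted p = 7.07e-04). The RAS pathway inhibitor gene spred1 fell by 0.42 on the log2 scale (edgeR adjusted p = 0.0254) and the phosphatase gene dusp1 by 0.27 (edgeR adjusted p = 0.0371).

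The inhibitors that rose were dusp5, a nuclear ERK phosphatase gene (0.43, edgeR adjusted p = 0.0234), the RAS GTPase activating protein gene rasal2 (0.81 for XM_005171325.4, edgeR adjusted p = 0.0258) and flrt3 (1.82, edgeR adjusted p = 0.0355). In Xenopus the product of flrt3 promotes FGF signalling, so its place in a list of inhibitors is doubtful. Another tested accession of rasal2 had a log2 fold change of −0.43, and with all accessions of rasal2 summed the value was 0.59 with an adjusted p of 0.136. Like dusp6, dusp2 and dusp5 encode MAP kinase phosphatases; they differed in opposite directions, while the interval of dusp6 included 0. A difference between these phosphatase genes was not tested. Of 9 processing alternatives, calls were lost in 3 each for dusp5, rasal2, flrt3 and dusp1, and in 1 each for dusp2 and spred1. Leaving out 1 library lost the call of dusp5 (actl6a replicate 3), of rasal2 (actl6a replicate 2 or 6), of dusp1 in 9 of 18 fits (controls 3, 4, 6, 7 and 8; actl6a 1, 3, 4 and 8) and of flrt3 in 11 of 18 (controls 2, 3, 5, 7, 8 and 10; actl6a 1 to 5), and in none of the 18 for dusp2 or spred1.

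Of 18 target accessions tested, 1 was higher and 3 were lower, a share of 22.2% against 16.4% of all accessions. The immediate early genes ier2a and egr1 fell, with log2 fold changes of −0.30 ± 0.0856 (SE, edgeR adjusted p = 0.0224) and −1.28 ± 0.412 (SE, edgeR adjusted p = 0.0395). For ier2a 6 of 8 actl6a libraries were below every control. The counts of egr1 were low, at 4 to 38 in controls and 3 to 22 in actl6a libraries. The ETS factor gene ets2 fell by 0.29 on the log2 scale (edgeR adjusted p = 0.0423), with 4 of 8 actl6a libraries below every control. The gene that rose was cxcr4b, a chemokine receptor gene, at 1.00 ± 0.297 (SE, edgeR adjusted p = 0.0265), with 4 of 8 actl6a libraries above every control. Its call was lost without actl6a replicate 3, 5 or 8, that of ets2 without control 4, 5, 8 or 9 or actl6a 1, 2, 3, 4 or 5, and that of egr1 in 11 of 18 fits (controls 3, 5, 7, 9 and 10; actl6a 1, 2, 3, 4, 5 and 8). The call of ier2a held in all 18. Of 9 processing alternatives, calls were lost in 2 for ier2a, 2 for cxcr4b, 3 for ets2 and 4 for egr1.

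**Figure D5:**
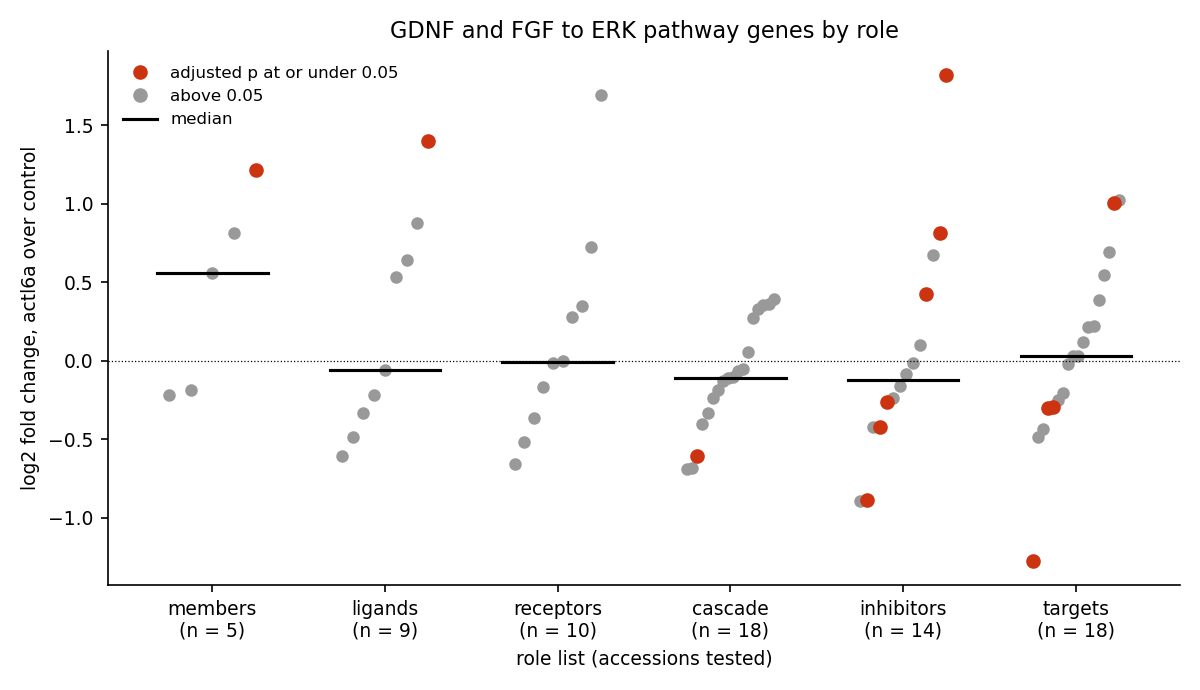
Log2 fold change of actl6a over control for the accessions tested in the members and in the 5 role lists, with 1 point per accession, a line at the median and red for an adjusted p at or under 0.05. Called genes lie on both sides of 0 among inhibitors and targets, no receptor was called outside the members, and the medians of the 5 role lists lie between −0.12 and 0.03.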

How the data were processed

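The deposited values are whole-number counts per RefSeq accession, 1 table per group. Per the submitters' processing notes the tools were cutadapt, FastQC, STAR, featureCounts and edgeR with build GRCz11; versions and strand settings are not given in the sources used here. Columns were matched to libraries by barcode, and accessions listed in only 1 table got 0 in the other. Symbols came from a RefSeq table of assembly GRCz12tu (20215 of 32820 accessions matched). It was used for names alone, and levels were not compared between genes, since counts were not divided by length.

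All 18 libraries were fitted with edgeR 4.0.16 in R 4.3.3: filterByExpr, TMM factors, quasi-likelihood test, group as the only term, and Benjamini-Hochberg adjustment over 14462 accessions with a threshold of 0.05. Standard errors were derived from the log2 fold change and F. The procedure was run on counts simulated independently for each accession and library. Such counts hold no batch, shared injection or shared tissue makeup, so the run does not test the fit against these. Alternatives used limma 3.58.1, DESeq2 1.42.0, other scalings and filters, covariates, a replicate block (replicates 1 to 8 of each group) and each library left out.

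Marker and role lists were written from general knowledge. The members and lists were chosen with earlier results of these data known. Named were the members, actl6a, atp1a1a.4 and up to 4 called genes per role list by lowest p. The 3 most similar patterns for 5 members were also named. Chosen after their values were seen were cdh17, slc12a1, fgfr1b, fgfr4, kdr, gfra1b, mapk3, ptpn11b, flrt3, dusp1, msgn1, elavl4, kdrl, cdh5, flt1 and phox2bb. Genes near in pattern were ranked by Pearson r of log2 CPM with a prior count of 2.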

Additional observations from a re-analysis of the deposited data

Results flagged for a closer look

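Of 38 gene and group combinations checked for a library that stands apart, 3 had one, where chance gives about 1 in 20. None was a member. The level of araf in actl6a replicate 4 was 73.7 CPM, with the next highest of its group at 48.1 CPM. The level of atp1a1a.4 in control replicate 4 was 2511 CPM, with the next at 1732 CPM, and the log2 fold change of atp1a1a.4 without that library was −0.11. The level of flrt3 in control replicate 1 was 54.7 CPM, with the next at 29.3 CPM.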

How the results depend on the processing

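With muscle, blood, epidermis and neural scores as covariates, the log2 fold changes of etv4 (−0.76), ret (0.12), spry4 (−0.58) and atp1a1a.4 (0.16) changed sign and none passed the threshold; dusp6 kept its sign in all alternatives. The value of gfra1a was 1.15 with library totals, 1.20 without a filter, 1.22 with a mean of at least 1 CPM and 0.25 with the covariates, and none of these passed the threshold, so that 0 members were called. Leaving out 1 library gave 1.06 to 1.46 for gfra1a, 0 to 1 members called, 6 to 13 other pathway accessions called and 1876 to 2417 of all accessions, against 12 and 2375. The covariates left 105 of all accessions and 0 of the pathway, and no filter left 1966 of all accessions and 7 of the pathway. Library totals gave 816 higher and 1634 lower accessions, against 1143 and 1232. The causes were not tested.

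Replicate numbers did not pair the libraries, since same-numbered libraries correlated between −0.119 and 0.324 in their deviations and none correlated best with its own number. The fit with the replicate block left out control replicates 9 and 10, so it differs in libraries as well as in the block. It called 1058 accessions and 4 of the pathway, and gfra1a had a value of 1.54 and was not called. Of 5 members 0 were called in that edgeR fit. At an unadjusted p under 0.05 were 3 of them, against 1 in the fit of all 18 libraries without the block. Depth limits etv5a, spry1 and spry2, whose accessions had too few counts to pass the filter on low counts. Without a filter all 10 member accessions were tested, and with a mean of at least 1 CPM 7 were. In these 2 edgeR fits 0 of the members were called, against 1966 of 32820 and 2356 of 19946 of all accessions.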
